A study of Mus musculus with 8 samples.

Results

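A set of 9 lysosomal genes for the breakdown of gangliosides and other sphingolipids was examined in the hippocampus of mutant and normal mice. They are Hexa, Glb1, Gm2a, Neu1, Galc, Arsa, Asah1, Smpd1 and Psap. They were taken by name, as every probe set of the array that carried 1 of these symbols alone, which gave 15 probe sets of 22626 and 9 genes of 12393. Hexa, Glb1, Arsa, Asah1 and Smpd1 had 1 probe set each, Gm2a and Psap had 2, and Neu1 and Galc had 3. The study hybridised 1 Affymetrix mouse array per animal with RNA of the right hippocampus, to compare 4 mutant with 4 normal mice. Mutant mice carried the mps allele of Gusb on both chromosomes (mps/mps), and normal mice carried it on 1 (mps/+), so neither group was free of it. Both groups are labelled with the B6.C-H2-Kbm1/ByBir background, came from a colony kept by carrier-to-carrier brother-sister mating, and shared cages. Mutants 1 to 4 were a female of 38.3 weeks, males of 25.6 and 25.6 weeks, and a female of 19.6 weeks. Normals 1 to 4 were a female of 38.3 weeks, males of 25.6 and 19.6 weeks, and a female of 14.6 weeks.

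As background, Gusb encodes beta-glucuronidase, which removes glucuronic acid from glycosaminoglycans in the lysosome, and its loss causes mucopolysaccharidosis VII. Sphingolipids are taken apart in the same compartment, sugar by sugar, down to ceramide and then sphingosine. Sialic acid is removed by the sialidase of Neu1, galactose of GM1 ganglioside by the beta-galactosidase of Glb1, and N-acetylgalactosamine of GM2 by beta-hexosaminidase A, whose alpha chain Hexa encodes, with the lipid-lifting activator of Gm2a. Myelin lipids pass through arylsulfatase A (Arsa), which turns sulfatide into galactosylceramide, and galactosylceramidase (Galc). Acid sphingomyelinase (Smpd1) and acid ceramidase (Asah1) act on sphingomyelin and ceramide, and prosaposin (Psap) is cut into the saposins that help several of these enzymes. Inherited loss of single members gives Tay-Sachs disease (HEXA), GM1 gangliosidosis (GLB1), Krabbe disease (GALC), metachromatic leukodystrophy (ARSA), Farber disease (ASAH1) and Niemann-Pick disease (SMPD1) in humans.

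All values are log2 expression per probe set, and differences are mutant minus normal. Array medians lay between 6.09 and 6.17, and 27 control probe sets for Bacillus transcripts lay between 1.86 and 3.72, which gives the level of probe sets without a target. In the check of the mutated gene, the mutants read 4.36 to 4.71 at 1 Gusb probe set (1448124_at), below all normals at 5.40 to 6.56. An exact permutation test, two-sided, gave p = 0.0286, the lowest value that 4 against 4 animals can reach. In limma's test over all probe sets, the change of -1.40 ± 0.23 (SE) at this probe set did not pass (limma adjusted p = 0.136). At the other Gusb probe set (1430332_a_at) the groups overlapped, at 5.93 ± 0.48 in mutants and 5.77 ± 0.53 in normals (SD, n = 4 each), and the same exact test gave p = 0.657. Normal 1 stood apart in RNA quality. The difference between its 3 prime and 5 prime control probe sets, averaged over actin and Gapdh, was 3.58. That difference lay at 0.30 to 0.75 in mutants and at 0.22 to 0.35 in the other normals. Markers of neighbouring brain regions also differed between arrays. The mean of 7 striatal genes was 6.66 to 7.69 in mutants, against 7.47 in normal 2 and 9.25 to 10.4 in the other normals, and that of 9 thalamus and habenula genes ranged from 6.36 to 9.78 in mutants and from 6.49 to 8.94 in normals. In RNA of whole tissue, fewer cells of a type and less RNA per cell cannot be told apart.

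The 9 genes had slightly higher means in mutants, and none passed the test. At the brightest probe set of each gene, all 9 changes were positive, between 0.23 (Galc and Arsa) and 0.59 (Gm2a), with a median of 0.31. Over all 12393 genes, 52.5% had a higher mean in mutants and the median was 0.01. Of the 15 probe sets, 0 passed limma's test at an adjusted p of 0.05 over all 22626 probe sets, where 18 (0.0796%) passed as higher and 2 (0.00884%) as lower. Of the 15, 14 had the higher mean in mutants, against 47.1% of all probe sets. At an unadjusted p under 0.05, 2 of the 15 (Gm2a 1448241_at and Neu1 1416831_at) were higher in mutants, against 3.14% of all probe sets, and 0 were lower, against 2.81%. All 4 mutants lay above all 4 normals for 1 of the 15, against 1.81% of all probe sets. The smallest limma adjusted p among the 15 was 0.643. Without normal 1, all 9 brightest probe sets still had a higher mean in mutants, but only 11 of the 15 probe sets did. The median change of the 9 was then 0.22, against 0.04 over all genes, of which 56.9% were positive. Of the 15 probe sets, 12 exceeded the highest Bacillus value in all 8 arrays and Neu1 1448481_at in 7. Neu1 1447942_x_at and Galc 1449900_at exceeded it in none.

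**Figure D1:**
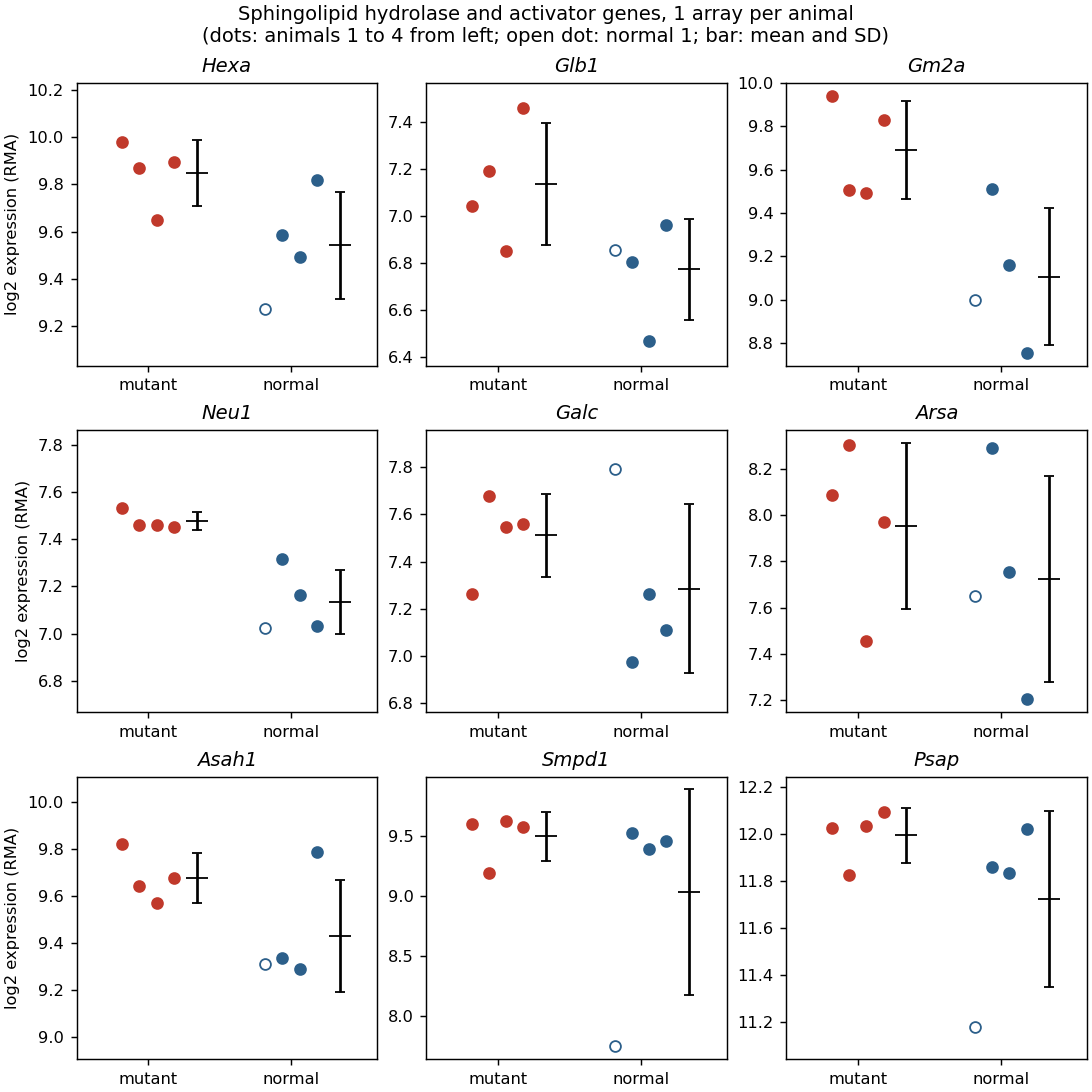
Log2 expression of the 9 genes at the brightest probe set of each, with mutants on the left and normals on the right of each panel, a dot per animal and a bar for the mean and SD (n = 4 each). The scales differ between panels. Only in the Neu1 panel do the groups not overlap, and the open dot, normal 1, is far below the other arrays for Smpd1 and Psap.

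The sequence before the transcription start was inspected because the 9 changes had the same sign and because many lysosomal genes carry a CLEAR element, the site bound by the factor TFEB. This element contains the E-box core CACGTG. RefSeq promoter windows of GRCm38.p6, from 250 bases before to 50 after the start, were matched by symbol for 8 of the 9 genes, with 2 starts for Psap. Asah1 was not matched. The core was searched on both strands. It was found in the windows of 2 genes, Glb1 and Arsa, and in 7.15% of all 32851 windows. In both it was preceded by T, which makes the longer motif TCACGTG (its reverse complement is CACGTGA), held by 3.77% of all windows. The last 60 bases before the start are shown for these 2 genes and for Neu1, whose groups did not overlap, with the core in capitals.
Glb1, chr9:114401018-114401077, plus strand: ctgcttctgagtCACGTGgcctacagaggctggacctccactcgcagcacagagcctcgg
Arsa, chr15:89477425-89477484, minus strand: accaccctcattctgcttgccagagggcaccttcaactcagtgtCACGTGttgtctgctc
Neu1, chr17:34931193-34931252, plus strand: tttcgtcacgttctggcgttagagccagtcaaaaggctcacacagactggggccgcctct
The core began 48 bases before the start in Glb1 and 16 bases before it in Arsa. The Neu1 stretch holds no match. A match describes the letters only.

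Among the ganglioside enzymes, Neu1 separated the groups most clearly. The sialidase gene (1416831_at) was at 7.53, 7.46, 7.46 and 7.45 in mutants 1 to 4, against 7.02, 7.32, 7.16 and 7.03 in normals 1 to 4. Every mutant lay above every normal, and the mutants spread less, with an SD of 0.04 against 0.14 in normals. The change of 0.34 ± 0.10 (SE), 1.27-fold, did not pass (limma adjusted p = 0.643, unadjusted p = 0.00962), and its 95% interval ran from 0.11 to 0.58. Without normal 1 it was 0.31. The second Neu1 probe set (1448481_at), at 4.11 to 4.22 in mutants and 3.71 to 4.18 in normals, had a change of 0.19 ± 0.12 (SE) with overlapping groups, and of 0.11 without normal 4. The third lay at the level of the Bacillus controls in all 8 arrays.

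Gm2a, the gene of the GM2 activator protein, had the largest change of the 9 at its brightest probe set. That probe set (1448241_at) read 9.94, 9.51, 9.49 and 9.83 in mutants 1 to 4 and 8.998, 9.51, 9.16 and 8.76 in normals 1 to 4. Mutants 1 and 4 exceeded every normal, while mutants 2 and 3 lay at or just below normal 2, the highest normal. The change was 0.59 ± 0.18 (SE), 1.50-fold (limma adjusted p = 0.687, unadjusted p = 0.0122). The second probe set (1416188_at) did not show it. It was at 8.15, 6.95, 6.71 and 7.15 in mutants and 4.91, 7.50, 7.65 and 7.57 in normals. Normal 1 was the lowest of the 8 arrays and mutant 1 the highest, and the other 3 mutants lay below the other 3 normals. Its change was 0.33 ± 0.63 (SE), and -0.33 without normal 1 (limma adjusted p = 0.749). The direction for Gm2a thus depends on the probe set and on normal 1.

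Hexa, the alpha chain gene of beta-hexosaminidase A, was at 9.98, 9.87, 9.65 and 9.89 in mutants and 9.27, 9.59, 9.49 and 9.82 in normals. Of the 4 mutants, 3 exceeded every normal, and mutant 3 lay below normal 4, the youngest animal. The change was 0.31 ± 0.14 (SE; limma adjusted p = 0.850), with a 95% interval of -0.02 to 0.63, and it ran from 0.22 without normal 1 to 0.40 without normal 4. Glb1, the beta-galactosidase gene, was at 7.04, 7.19, 6.85 and 7.46 in mutants and 6.86, 6.81, 6.47 and 6.96 in normals. Mutants 1, 2 and 4 exceeded every normal, and mutant 3 lay within the normals. Its change of 0.36 ± 0.16 (SE; limma adjusted p = 0.846) was 0.39 without normal 1. With 1 animal left out, it ran from 0.26 without mutant 4 to 0.46 without mutant 3.

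For the enzymes of myelin lipid breakdown, the groups overlapped at every probe set. Galc, the galactosylceramidase gene (1452907_at), was at 7.26, 7.68, 7.55 and 7.56 in mutants, against 7.79, 6.97, 7.26 and 7.11 in normals. Normal 1 was the highest of all 8 arrays, the reverse of its place for Smpd1 and Psap. The change was 0.23 ± 0.19 (SE; limma adjusted p = 0.922). Without normal 1 it was 0.40 ± 0.14 (SE; limma adjusted p = 0.403), and every mutant then lay above every remaining normal, with mutant 1 and normal 3 both at 7.26. Without normal 2 it was 0.12. A dimmer Galc probe set (1420547_at), at 4.53 to 5.05 in mutants and 4.35 to 5.28 in normals, had a change of 0.0021, and the third lay among the Bacillus controls. Arsa, the arylsulfatase A gene, was at 8.09, 8.31, 7.46 and 7.97 in mutants and 7.65, 8.29, 7.75 and 7.20 in normals. Its animals spread widely in both groups, with an SD of 0.36 in mutants and 0.45 in normals. The change of 0.23 ± 0.26 (SE; limma adjusted p = 0.931) was 0.06 without normal 4 and 0.42 without normal 2.

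For ceramide and sphingomyelin, Asah1 had a small change and Smpd1 rested on 1 array. Asah1, the acid ceramidase gene, was at 9.82, 9.64, 9.57 and 9.68 in mutants and 9.31, 9.34, 9.29 and 9.79 in normals. All mutants lay above normals 1 to 3, and normal 4 lay above mutants 2 to 4. The change was 0.25 ± 0.14 (SE; limma adjusted p = 0.896), and it ran from 0.20 without mutant 1 to 0.37 without normal 4. Smpd1, the acid sphingomyelinase gene, was at 9.60, 9.19, 9.62 and 9.58 in mutants and 7.75, 9.52, 9.40 and 9.46 in normals. Mutant 2 lay below normals 2 to 4. The change of 0.47 ± 0.38 (SE; limma adjusted p = 0.922) was 0.04 ± 0.14 (SE; limma adjusted p = 0.945) without normal 1, where the SD of the remaining normals was 0.06, against 0.86 over all 4.

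Psap, the prosaposin gene, had a change that also shrank without normal 1. Its brighter probe set (1415687_a_at) was at 12.02, 11.82, 12.03 and 12.09 in mutants and 11.18, 11.86, 11.83 and 12.02 in normals. Mutant 2 was lower than all normals but normal 1. The change of 0.27 ± 0.19 (SE; limma adjusted p = 0.902) was 0.09 ± 0.11 (SE; limma adjusted p = 0.817) without normal 1. The second Psap probe set (1421813_a_at) was at 11.68, 10.84, 11.56 and 11.41 in mutants and 8.75, 11.25, 11.54 and 12.03 in normals. Its change was 0.48 ± 0.64 (SE), and -0.24 without normal 1. Both Psap probe sets varied together over the 8 arrays (Pearson's r = 0.951), as a description over arrays that include normal 1.

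**Figure D2:**
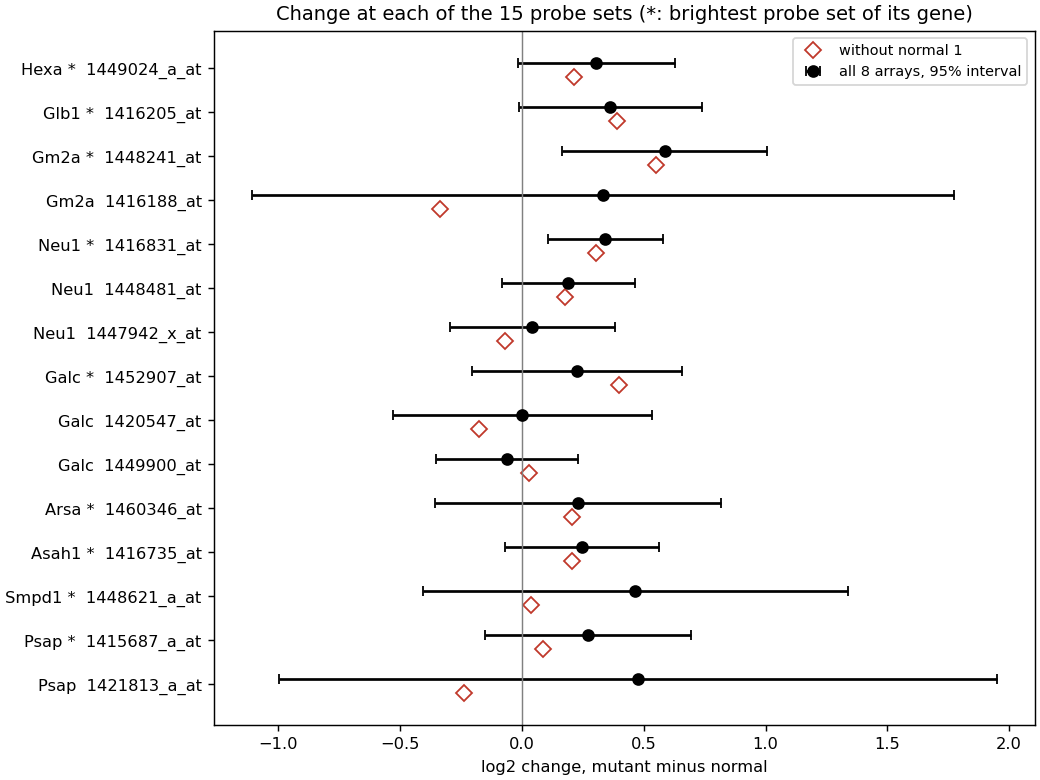
Log2 change, mutant minus normal, at each of the 15 probe sets over all 8 arrays (dots with 95% intervals from limma) and without normal 1 (open diamonds). The intervals of Gm2a 1448241_at and Neu1 1416831_at lie above 0, and leaving out normal 1 turns the sign at 5 dimmer probe sets, among them Gm2a 1416188_at and Psap 1421813_a_at.

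The place of normal 1 differed between the probe sets. Relative to the mean of the other 3 normals it was lower by 2.86 (a difference of -2.86) at Psap 1421813_a_at, -2.66 at Gm2a 1416188_at, -1.71 at Smpd1 and -0.73 at Psap 1415687_a_at. These 4 lay at the 0.495, 0.623, 2.35 and 9.64 percentiles of that difference over all probe sets. Galc 1420547_at was at -0.72 and Neu1 1447942_x_at at -0.45. Normal 1 was higher by 0.68 at Galc 1452907_at and by 0.36 at Galc 1449900_at. The differences were between -0.36 and 0.11 for Hexa, Glb1, Arsa, Asah1, Gm2a 1448241_at and the 2 brighter Neu1 probe sets. The high 3 prime minus 5 prime value was found in the same array, and its part in these differences was not tested. Of the 9 genes at their brightest probe set, 4 were lowest in normal 1 and 2 each in normals 3 and 4. Of the 9, 4 were highest in mutant 1 and 2 in mutant 4, and all 9 of mutant 4 were among the upper 4 arrays.

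**Figure D3:**
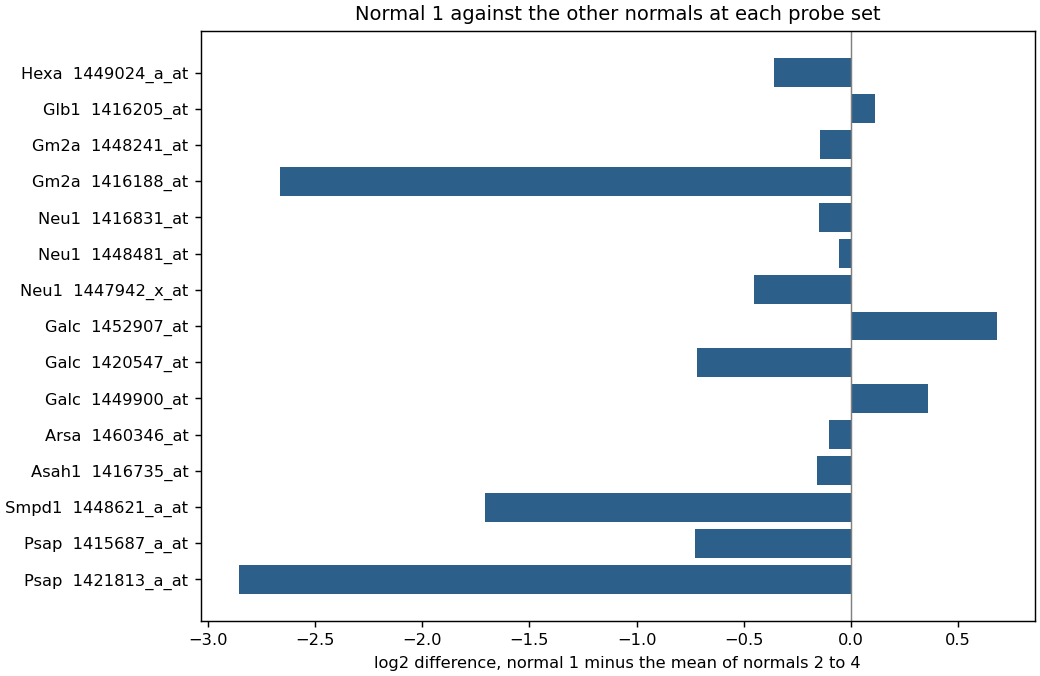
Difference between normal 1 and the mean of normals 2 to 4 on the log2 scale, 1 bar per probe set. The bars of Psap 1421813_a_at and Gm2a 1416188_at reach below -2, while that of Galc 1452907_at is positive.

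Animals of the same age could be set side by side at 3 ages, as values without a test. The share of all genes higher in mutants at each age was not computed, so the counts of the 9 genes cannot be set against it. At 19.6 weeks mutant 4, a female, exceeded normal 3, a male, for all 9 genes, by 0.18 (Smpd1) to 0.99 (Glb1). At 25.6 weeks, where all 3 animals were male, the mean of mutants 2 and 3 exceeded normal 2 for 6 of 9 genes. The differences were 0.64 for Galc and 0.27 for Asah1 but -0.41 for Arsa, -0.12 for Smpd1 and -0.0081 for Gm2a. At 38.3 weeks mutant 1 exceeded normal 1, both female, for 8 of 9 genes, with Galc at -0.53 and Smpd1 at 1.85, in the pair that holds normal 1. Hexa, Glb1, Neu1, Asah1 and Psap had the higher value in mutants at all 3 ages. Normal 4, at 14.6 weeks, had no mutant of its age.

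**Figure D4:**
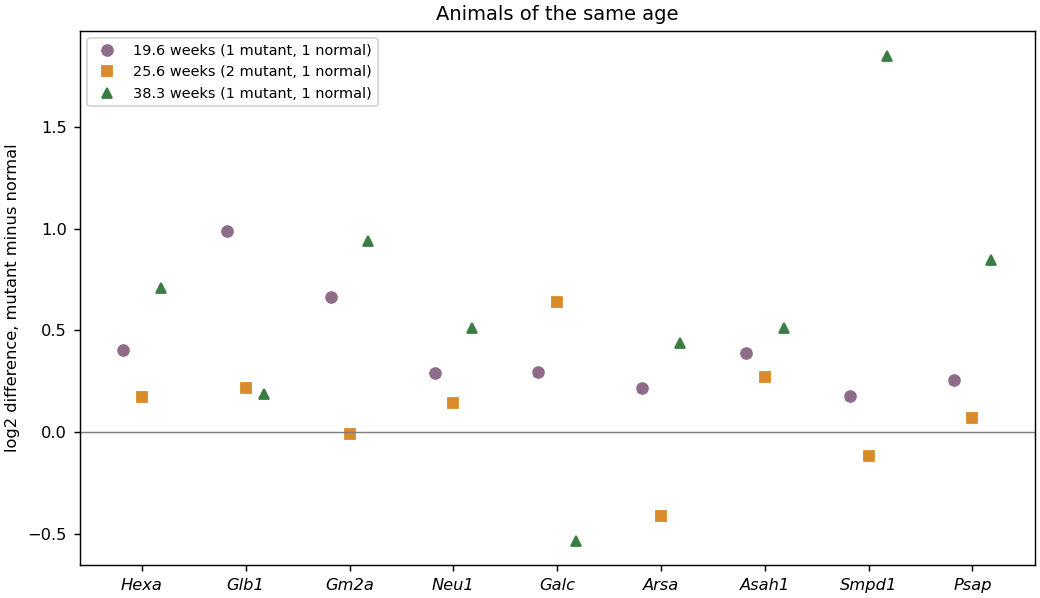
Log2 difference between mutant and normal animals of the same age for the 9 genes, at 19.6 weeks (circles), 25.6 weeks (squares, the mean of 2 mutants) and 38.3 weeks (triangles). Values lie above 0 except for Gm2a, Arsa and Smpd1 at 25.6 weeks and Galc at 38.3 weeks.

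The genotype difference was also compared between the sexes, with 2 animals per group and sex. For 0 of the 15 probe sets did the interaction pass (limma adjusted p of at least 0.397), as for 0% of all 22626, of which 10.5% had an unadjusted p under 0.05, as did 2 of the 15. The smallest unadjusted p among the 9 brightest probe sets was that of Gm2a (1448241_at), 0.0141, with a change of 1.01 in females and 0.17 in males. The interaction term, male minus female change, was -0.84 ± 0.25 (SE). The change of Neu1 (1416831_at) was 0.47 in females and 0.22 in males, and that of Galc (1452907_at) -0.04 in females and 0.50 in males. In males the changes of Arsa and Smpd1 were -0.14 and -0.05, against 0.60 and 0.98 in females. Normal 1 was 1 of the 2 normal females.

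The other genes of sphingolipid handling were read from the same fit, at the brightest probe set of each. Over all 12393 genes at their brightest probe sets, 0.0968% passed as higher and 0.00807% as lower, and 4.04% were higher and 2.47% lower at an unadjusted p under 0.05. All mutants lay above all normals for 2.27% of genes and below them for 1.61%. Of 5 measured partner genes of lysosomal breakdown, all 5 had higher means in mutants (median 0.21). Of these 5, 0 passed and 1 had an unadjusted p under 0.05. Over all 9 probe sets of these genes, 8 had higher means and 1 a lower mean. The lower 1 was a dimmer probe set of Pla2g15 (1422341_s_at), at -0.68, against 0.02 at the brighter probe set of that gene. Ctsa, the protective protein that holds the Neu1 sialidase and beta-galactosidase in 1 complex, was at 9.19 ± 0.12 in mutants and 8.71 ± 0.21 in normals (SD, n = 4 each), and every mutant exceeded every normal. Its change was 0.49 ± 0.13 (SE; limma adjusted p = 0.545). The alpha-galactosidase gene Gla was at 0.26, Sumf1, which activates sulfatases such as arylsulfatase A, at 0.21, and Scarb2, a lysosomal membrane protein gene, at 0.11.

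Genes that break down sphingolipids outside the lysosome were divided. Of 13 measured, 8 had higher and 5 lower means, 0 passed, and 2 were higher and 1 lower at an unadjusted p under 0.05 (median 0.08). Sphk1, which phosphorylates sphingosine, was at 4.82 ± 0.22 in mutants and 4.28 ± 0.20 in normals (SD, n = 4 each), a change of 0.54 ± 0.15 (SE; limma adjusted p = 0.555). The sphingosine phosphate lyase gene Sgpl1 was at 0.74 on its brighter probe set and -0.45 on the other. The sialidase gene Neu2 was at -1.22 (limma adjusted p = 0.648), with an SD of 0.13 in mutants and 0.84 in normals, and the sphingomyelinase gene Smpd3 was at -0.64. Neu2 read 3.91 to 4.18 in mutants, near the highest Bacillus value of 3.72, and 5.95, 4.08, 5.73 and 5.09 in normals 1 to 4. Normal 2 thus lay within the mutants. Neu1 and Neu2 had mean changes of opposite sign, and neither passed.

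Sphingolipid synthesis held the 1 probe set that passed. Of 16 measured genes, 8 had higher and 8 lower means at the brightest probe set, 0 passed, and 2 were lower at an unadjusted p under 0.05 (median -0.00054). Over all 32 probe sets of these genes 1 passed, for Ugt8a, which makes the galactosylceramide that Galc breaks down. This probe set (1419064_a_at) was at 6.40, 6.20, 5.66 and 6.26 in mutants, against 7.68, 7.51, 8.01 and 8.11 in normals. Every mutant lay below every normal, as for 1.75% of all probe sets. It fell by 1.70 on the log2 scale with an SE of 0.20 (limma adjusted p = 0.0306), and the call held in 1 of 8 fits that left out 1 animal, at changes of -1.80 to -1.54 and adjusted p of 0.0482 to 0.164. The call ended in each of the other 7, with adjusted p of 0.0656, 0.140 and 0.104 without normals 1, 3 and 4 and of 0.104, 0.164, 0.0530 and 0.159 without mutants 1 to 4. Over all 26 alternatives run for it the call held in 8. It ended with the series of animal numbers as a block (limma adjusted p = 0.0550) and with sex (0.0662), age (0.0714), sex and age (0.153), the oligodendrocyte mean (0.134) or the regional component (0.210) as covariates, at changes of -1.70 to -1.47. The oligodendrocyte mean includes the brighter Ugt8a probe set, so that fit adjusts Ugt8a partly for itself. The brighter Ugt8a probe set (1419063_at) was at 8.19 ± 0.35 in mutants and 9.34 ± 0.53 in normals (SD, n = 4 each), a change of -1.14 ± 0.28 (SE; limma adjusted p = 0.447). Galc was at 0.23 on its brightest probe set, 0.0021 on a dimmer probe set and -0.06 on the probe set among the Bacillus controls. The only negative Galc change thus came from a probe set that exceeded the highest Bacillus value in no array, and that of the dimmer probe set was near 0. The ceramide synthase gene Cers2 was at -0.39 (limma adjusted p = 0.776), with every mutant below every normal, while Degs1 was at -0.15 and Cerk, the ceramide kinase gene, at 0.39. The sulfatide synthesis gene Gal3st1 was at -0.24 and the GM3 synthase gene St3gal5 at -0.02.

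**Figure D5:**
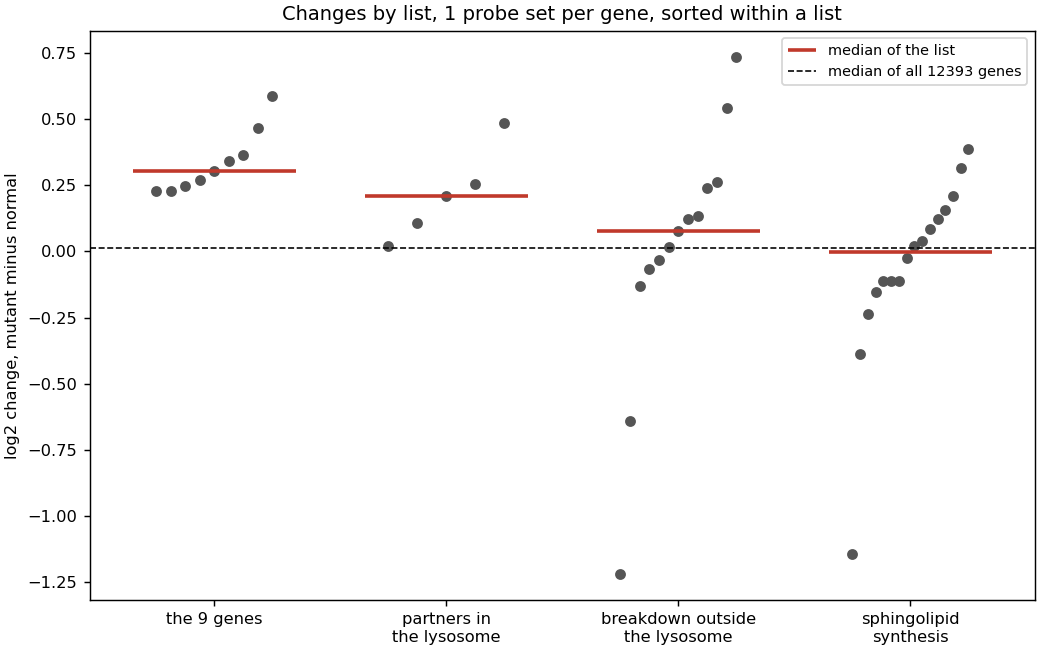
Log2 change, mutant minus normal, of each gene at its brightest probe set in the 9-gene list and in 3 other lists, with list medians as bars and the median over all genes as a dashed line. The 9 genes lie between 0.23 and 0.59, while the lists for synthesis and for breakdown outside the lysosome spread on both sides of 0.

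Cell type markers also differed between the groups. The mean of 15 microglia and macrophage genes lay at 8.50 to 8.74 in mutants, above all normals at 7.08 to 7.83, and 12 of the 15 had higher means in mutants, 2 of them past the test. Of the 15, 14 lay above the highest Bacillus value in all arrays. That of 10 astrocyte genes lay at 9.64 to 9.77 in mutants, again above all normals at 9.08 to 9.42, and 1 of the 10 passed as higher. The mean of 10 oligodendrocyte and myelin genes, Ugt8a among them, lay at 8.97 to 9.71 in mutants, below all normals at 9.92 to 10.5, with 10 of 10 lower in mutants, 0 of them past the test and 6 at an unadjusted p under 0.05. The neuronal mean overlapped, at 9.60 to 10.0 in mutants and 9.56 to 10.1 in normals. The mean of 8 meningeal fibroblast genes lay at 6.09 to 7.01 in mutants, above all normals at 5.30 to 6.04, with 8 of 8 higher, 0 past the test and 6 at an unadjusted p under 0.05. That of 8 endothelial genes overlapped, at 6.77 to 7.04 in mutants and 6.34 to 6.90 in normals, with 8 of 8 higher, 0 past the test and 2 at an unadjusted p under 0.05. Markers of CA1 pyramidal and dentate granule cells overlapped between the groups. A choroid plexus list was at 8.27 and 7.38 in mutants 1 and 3, 5.26 in both other mutants, and 4.39 to 5.36 in normals. The part of these differences in the values of the 9 genes was not tested.

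The 9 genes did not share 1 pattern over the arrays. Of 36 pairs, 30 had a Pearson's r above 0 over the 8 arrays, with a median of 0.46 and a range from -0.59 (Galc and Smpd1) to 0.97 (Smpd1 and Psap). Without normal 1, 32 of the 36 were above 0, the median was 0.35, and the r of Smpd1 and Psap was 0.74. The highest r without normal 1 were those of Gm2a with Neu1 (0.93, and 0.93 over 8 arrays) and Hexa with Asah1 (0.92, and 0.90 over 8 arrays). These are descriptions over arrays that share genotype groups and tissue differences, and the genes are not independent replicates. The share of positive pairs over all genes was not computed, so these counts cannot be set against it.

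For each gene the 2 most alike of 10346 other genes, by Pearson's r over the 8 arrays, were as follows, again as a description. They were Slc25a10 (0.987) and Itga7 (0.977) for Gm2a, and Lmna (0.981) and Capg (0.976) for Neu1. They were Glis2 (0.942) and Fdft1 (0.920) for Hexa, and Top1mt (0.962) and Lamp1 (0.958), which encodes a major lysosomal membrane protein, for Glb1. Galc was most like Cwc27 (0.990) and Ercc3 (0.974), and Arsa most like Snrpn (0.984) and Prr13 (0.969). Asah1 was most like Cxcl5 (0.933) and Hdac1 (0.910). Csnk1g2 was among the most alike for both Smpd1 (0.998, with Armc6 at 0.995) and Psap (0.978, with Dctn2 at 0.984), the genes in which normal 1 was far below the other arrays.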

How the data were processed

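RNA of the right hippocampus of 4 mutant and 4 normal mice was measured on 1 array per animal. The deposited values are log2 expression per probe set, and RMA and GCOS 1.4 are named per the submitters' processing notes. The genome build that the authors used is not given in the sources used here. Of 22690 probe sets, 64 controls were left out. Of the others, 20380 carried 1 symbol, 691 several and 1555 none, and 20351 of those with 1 symbol matched the RefSeq gene table. The genotypes were compared by limma 3.58.1 under R 4.3.3 (lmFit, eBayes) over 22626 probe sets, with Benjamini-Hochberg adjustment over all of them, and no dim probe set was removed. A gene was read at its brightest probe set by the mean of the 8 arrays (12393 genes). Promoters came from RefSeq (GRCm38.p6). Figures were drawn in Python 3.11.15. The genes, lists and tests were chosen with earlier results of these data known. Named genes were the 9, Gusb, up to 4 genes with the smallest p of each related list, and the 2 most alike genes of each of the 9. Gal3st1, St3gal5, Pla2g15 and the second Ugt8a and Sgpl1 probe sets were named after their values were seen. Likeness was computed over genes whose mean lay above the highest Bacillus value. The number of arrays limits the precision. This comparison was simulated over 22626 probe sets, with independent values at the spread measured for each probe set. The test recovered 59% of 100 probe sets given a log2 change of 1 and 87% of 100 given a change of 2. There were 7 false calls. The simulated arrays lacked the shared differences in RNA quality and tissue of the measured arrays, where recovery may differ. Recovery at the smaller changes of the 9 genes, 0.23 to 0.59, was not tested. In the measured arrays, the change of -1.40 at Gusb 1448124_at did not pass (limma adjusted p = 0.136).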

Additional observations from a re-analysis of the deposited data

Results flagged for a closer look

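Single animals were flagged where their gap to the next animal was large relative to the range of their group. This was so at 5 of the 15 probe sets, in 6 of 30 groups of 4 tested. A flagged gap can be small on the log2 scale, as at Neu1 1416831_at. The rule flags about 1 group in 20 of independent values by chance, but these groups share the same 8 arrays. The share flagged over all probe sets was not computed, so the count is no trait of these genes. Normal 1, the array with the high 3 prime minus 5 prime value, was lowest at Gm2a 1416188_at (4.91) and Smpd1 (7.75). Normal 4 was highest among normals at Asah1 (9.79). Mutant 2 was lowest among mutants at Smpd1 (9.19) and at Galc 1420547_at (4.53). Mutant 1 was highest among mutants at Neu1 1416831_at (7.53), where the other 3 mutants lay between 7.45 and 7.46.

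At Neu1 1447942_x_at both female mutants exceeded both female normals and both male mutants lay below both male normals. The male minus female change was -0.60 (limma adjusted p of the interaction = 0.461), on a probe set at the level of the Bacillus controls in all arrays.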

How the results depend on the processing

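The 15 probe sets gave 0 calls in each of 29 alternatives, among them other scalings, covariates and omitted animals, of which 25 to 29 held a given probe set, and the median change of the 9 genes ran from 0.21 (without normals 1 and 3) to 0.46 (females alone). Hexa, Glb1, Neu1 1416831_at, Gm2a 1448241_at and Asah1 kept a positive change under every alternative run. No paired analysis was possible because the labels name no replicate number or pair shared by mutants and normals for all 8 animals. Fits with a fixed block for lower or higher animal numbers and with a random block for age were run instead, with median changes of 0.31 and 0.29. The related lists gave 1 call, Ugt8a, when all probe sets of a gene were averaged. Over all probe sets, 0 to 50 passed as higher in mutants, against 18 in the main setting, and 0 to 12 as lower, against 2. Leaving out 1 animal gave changes of -0.33 to 0.58 for Gm2a 1416188_at, -0.24 to 0.86 for Psap 1421813_a_at, -0.18 to 0.13 for Galc 1420547_at, -0.13 to 0.028 for Galc 1449900_at and -0.070 to 0.10 for Neu1 1447942_x_at. Other changes that turned sign are given by setting. Without normals 1 and 3 these were Gm2a 1416188_at (-0.30), Psap 1421813_a_at (-0.27), Galc 1420547_at (-0.093), Neu1 1447942_x_at (-0.057) and Galc 1449900_at (0.057). Without normals 1 and 4, chosen after seeing the data, they were Gm2a 1416188_at (-0.34), Neu1 1447942_x_at (-0.11), Galc 1420547_at (-0.073), Arsa (-0.069) and Psap 1421813_a_at (-0.025). With the 3 prime minus 5 prime value as a covariate, also chosen after seeing the data, they were Gm2a 1416188_at (-0.13), Galc 1420547_at (-0.12), Neu1 1447942_x_at (-0.036) and Psap 1421813_a_at (-0.0047). With array weights they were Gm2a 1416188_at (-0.11), Galc 1420547_at (-0.089), Neu1 1447942_x_at (-0.0054) and Galc 1449900_at (0.0014). In males alone they were Gm2a 1416188_at (-0.75), Neu1 1447942_x_at (-0.26), Galc 1420547_at (-0.22), Psap 1421813_a_at (-0.20), Arsa (-0.14) and Smpd1 (-0.052), and in females alone Galc 1452907_at (-0.042). With the oligodendrocyte mean as a covariate they were Psap 1421813_a_at (-1.05), Galc 1420547_at (-0.43), Gm2a 1416188_at (-0.42), Smpd1 (-0.38), Psap 1415687_a_at (-0.10) and Galc 1449900_at (0.15). Arsa was at -0.088 with the regional component as a covariate, and Galc 1420547_at at -0.057 with same-age animals as a random block and -0.0027 with median centring. The cause was not tested. With 4 animals a group, arrays of unequal RNA quality and tissue, and probe sets of 1 gene that disagree, the precision of single changes was limited.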
